A study of Mus musculus with 16 samples.

Results

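The axon guidance ligands and receptors described here are the ephrins and Eph receptors, the semaphorins with their plexin and neuropilin receptors, netrin with its receptors, and the Robo receptors. They were taken as the probe sets whose single gene symbol matched a fixed pattern of family names, which found 58 of the 12488 probe sets on the array. One of these reads Unc50, a gene that shares only the letters of the UNC5 netrin receptors and is no guidance receptor. The remaining 57 probe sets read 44 guidance genes: 9 Eph receptors (13 probe sets), 8 ephrins (9), 16 semaphorins (21), 6 plexins and neuropilins (8), 3 genes of netrin and its receptors (4) and 2 Robo receptors (2). The pattern found 0 probe sets for the Slit ligands and 0 for neuropilin 2. For 35 of the 57 probe sets the mean level passed a filter on low values, which left 29 genes for testing with 1 probe set each. The other 15 genes are described separately.

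The study measured RNA of mouse spinal cord on 16 arrays. The spastic mutation is recessive and lies in Glrb, the gene of a subunit (beta) of the glycine receptor, which inhibits spinal neurons. The titles name 8 control arrays of mice aged 9 and 12 months (a female and a male sample at each age, each on 2 arrays) and 6 spastic arrays of mice aged 2 to 6 months. The spastic arrays are 2 samples titled female at 2 months, 1 titled male at 3 months with the word sev, 1 titled male at 3+ months, and 1 titled female at 6 months with the letter M, which was run on 2 arrays. A further 2 arrays are of a male sample aged 1 month from B6C3Fe, a hybrid mouse stock. The labels give no strain or genotype for the controls, no agent or treatment for any group, and do not say whether arrays a and b of a title are separate animals or whether animals were pooled. Arrays that differ only in that letter were averaged, which gave 4 control, 5 spastic and 1 B6C3Fe samples, so a p-value reflects the spread of these samples, which may be technical. No age is shared between groups, so genotype and age cannot be told apart.

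Guidance molecules steer growing axons by attraction or repulsion, and many go on acting in the adult at synapses, on glia and in blood vessels. Ephrins are membrane-bound ligands of the Eph receptor tyrosine kinases, and both partners can signal. Semaphorins act through plexins, the secreted class 3 members usually with a neuropilin as co-receptor. Netrin 1 acts through Dcc and the UNC5 receptors, and Slit proteins through Robo receptors.

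The labels and the tissue were checked first. Glrb had a log2 intensity of 12.70 to 13.30 on control arrays, 12.92 to 12.98 on B6C3Fe arrays and 9.92 to 11.11 on spastic arrays. Both spastic arrays titled male had the female pattern: Xist, a long RNA made from the silenced X, lay at 10.37 and 10.54, and the Y-linked Eif2s3y lay at the floor of 5.93, the value to which lower intensities were raised. All 12 neuronal, 9 of 9 astrocyte and 7 of 8 oligodendrocyte marker genes on the array passed the filter. Array medians lay between 289 and 383.6, and the share of values at the floor between 14.7% and 24.1%. On the RNA quality controls, the log2 ratio of the 3' to the 5' probe set of Pcx was 1.73 ± 0.22 (SD, n = 4) in controls against 2.38 ± 0.38 (SD, n = 5) in spastic samples, a difference of 0.65 (exact permutation test, 2-sided, p = 0.0317, adjusted over 4 control genes p = 0.127). In B6C3Fe this ratio was 1.78. For Tfrc, Actb and Gapdh the difference was -0.67 (exact permutation p = 0.0635), -0.32 (exact permutation p = 0.302) and -0.06 (exact permutation p = 0.762). The Actb ratio of B6C3Fe was -2.25 (-3.29 on array a and -1.21 on array b). This lay below the control samples (-0.29 to 0.71) and the spastic samples (-0.56 to 0.58). The Tfrc and Gapdh ratios of B6C3Fe were 0.94 and -0.33. Array a of the 9-month female control had a Pcx ratio of 2.72 against 1.31 on array b.

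Between spastic and control cords, 7 of the 29 guidance genes tested passed limma's test at an adjusted p under 0.05, 3 of them higher and 4 lower in spastic cords. This is 24.1% of the guidance genes, beside 19.8% of all 6427 genes tested (632 higher, 638 lower), and a share near that background is not a result about guidance genes as a group. Sema6b, Plxnd1 and Efnb1 were higher in spastic cords. Sema6d, Plxna2, Epha5 and Nrp1 were lower. The median difference over the 29 genes was 0.07 on the log2 scale, beside -0.02 over all genes, and the median size of the differences was 0.26, beside 0.24. Spastic and control samples did not overlap for 6 of the 29 genes (20.7%), beside 19.5% of all genes tested. Spastic samples were above all controls for Sema6b, Plxnd1, Epha8 and Sema4f and below all controls for Sema6d and Plxna2.

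**Figure D1:**
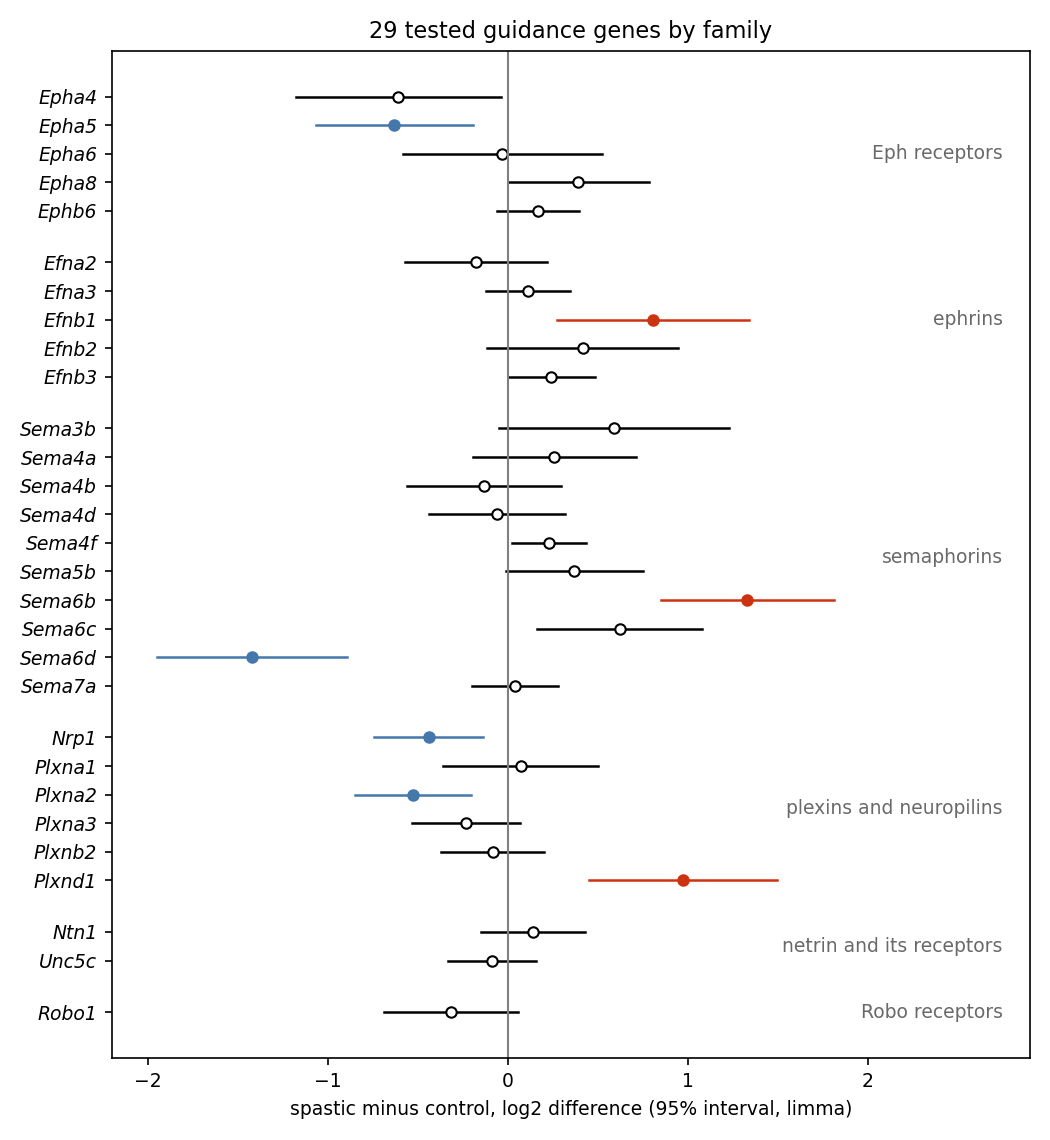
Difference between spastic and control cords (log2, x axis) for the 29 tested guidance genes, grouped by family, with the 95% interval of limma's fit; filled points are genes that passed the test, red higher and blue lower in spastic cords. Sema6b at 1.33 and Sema6d at -1.42 lie farthest from 0, in opposite directions.

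The largest differences were in the class 6 semaphorins, which span the membrane and bind class A plexins. Sema6b had log2 intensities of 8.68, 8.74, 7.58 and 8.61 in the control samples (9 months female and male, 12 months female and male). In spastic cords it had 9.54 and 9.40 in the 2-month samples, 9.60 in the sample titled sev, 10.12 at 3+ months and 9.83 at 6 months. Every spastic sample lay above every control sample, and B6C3Fe lay between them at 9.17. The same held for single arrays, with control arrays between 7.42 and 9.04 and spastic arrays between 9.40 and 10.12. Sema6b in spastic samples was 2.52-fold higher than in controls (1.33 on the log2 scale, SE 0.22, adjusted p = 0.00300).

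Sema6d moved the other way. It had log2 intensities of 9.22, 9.79, 10.04 and 9.92 in the control samples, in the same order, and 9.78 in B6C3Fe. In spastic samples it had 8.08, 8.98, 8.48, 7.86 and 8.23. All spastic samples lay below all controls and below B6C3Fe. Sema6d in spastic samples was 2.68-fold lower than in controls (-1.42 on the log2 scale, SE 0.24, adjusted p = 0.00375). The lowest control array was array a of the 9-month female sample, at 8.38, within the spastic range, while array b of that sample had 10.06. The call was lost with only the 1a arrays (-1.11, adjusted p = 0.0545) and without the 2 spastic samples titled male (-1.20, adjusted p = 0.0566).

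Sema6c, the third tested member of the class, did not pass (0.62, SE 0.21, adjusted p = 0.0568). It was called in 8 of the 27 alternative fits, among them those with quantile normalization, without titled sex, with B6C3Fe among the controls and without the 9-month male control. Its spastic samples lay close together, from 9.45 to 9.59, while the controls ran from 8.35 to 9.56 and B6C3Fe lay at 8.32. The 2 arrays of the 12-month male control differed by -2.31 for this gene (a minus b). Sema6a was below the filter, with controls at 7.08 ± 0.78 (SD, n = 4) and spastic samples at 6.43 ± 0.33 (SD, n = 5).

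**Figure D2:**
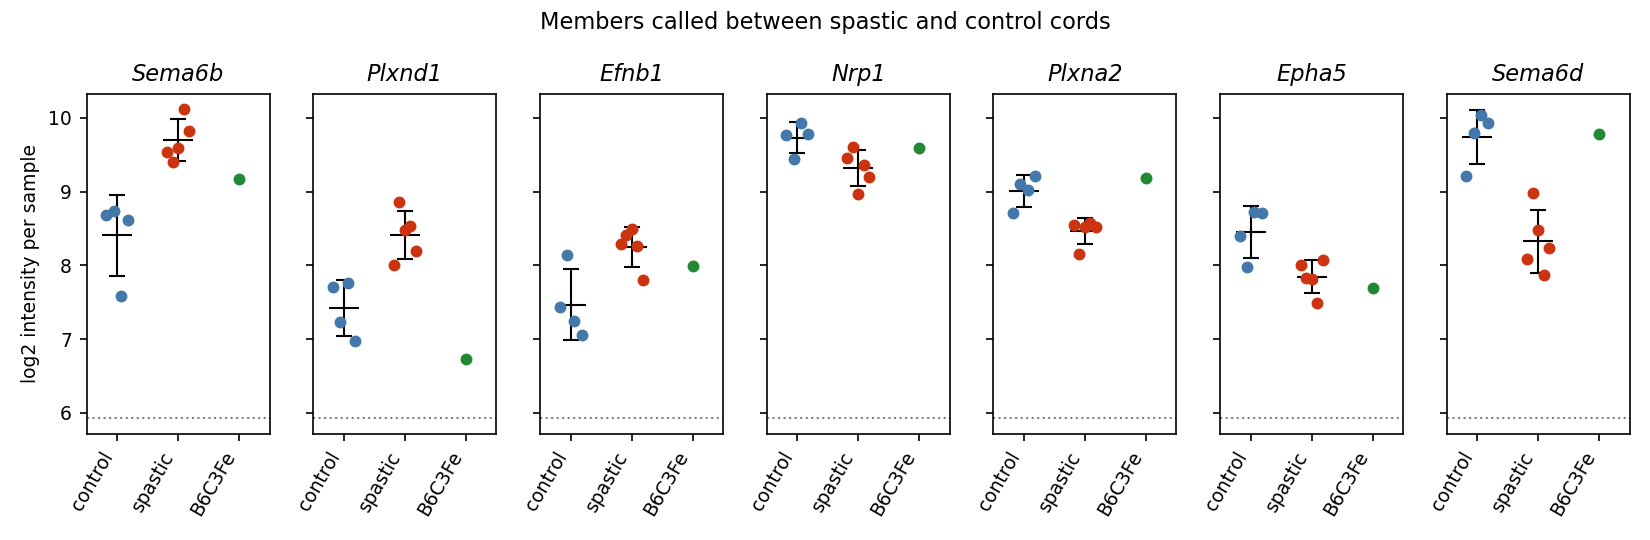
Log2 intensity of the 7 guidance genes that passed the test between spastic and control cords, 1 point per sample (4 control, 5 spastic, 1 B6C3Fe), with the mean and SD of the control and spastic groups as bars and the floor of 5.93 as a dotted line. Spastic samples lie above all controls for Sema6b and Plxnd1 and below all controls for Sema6d and Plxna2, while the groups overlap for Efnb1, Nrp1 and Epha5.

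The plexins and neuropilins are the receptors of the semaphorins. All 6 genes of this family passed the filter, and 1 was higher and 2 were lower in spastic cords, beside 19.8% of all genes called. The median difference of the family was -0.16. Plxnd1, a receptor of Sema3e that is prominent in blood vessel endothelium, had log2 intensities of 7.71, 7.23, 7.75 and 6.98 in controls. In spastic samples it had 8.00, 8.86, 8.47, 8.53 and 8.19, and in B6C3Fe 6.73. The groups did not overlap, and B6C3Fe lay below every other sample. Plxnd1 in spastic samples was 1.96-fold higher than in controls (0.97 on the log2 scale, SE 0.24, adjusted p = 0.0174). Without the 2 spastic samples titled male the difference was 0.62 (adjusted p = 0.255), and without the 12-month male control it was 0.85 (adjusted p = 0.0519).

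Markers of endothelial cells were also higher in spastic cords. Of 11 endothelial genes tested 8 were higher and 0 lower, beside 632 higher and 638 lower of all 6427 genes tested (19.8% called). Their median difference was 0.86, beside -0.02 over all genes. The summed intensity of these 11 genes was 4743 to 5828 in controls, 5628 in B6C3Fe and 9328 to 10547 in spastic samples. Kdr, Tek, Tie1 and Ocln were on the array but below the filter. Of 6 genes of mural cells, the muscle cells and pericytes of vessels, 3 were higher and 0 lower, and their summed intensity was 1806 to 2107 in controls, 2504 in B6C3Fe and 2926 to 3471 in spastic samples. The part of these cells in the value of Plxnd1 was not tested, and in whole cord a different number of cells of a type and a different amount of RNA per cell cannot be told apart.

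Plxna2, a class A plexin that binds class 6 semaphorins, had 8.70, 9.10, 9.02 and 9.21 in controls and 9.18 in B6C3Fe. In spastic samples it had 8.54, 8.15, 8.51, 8.58 and 8.53. The samples of the groups did not overlap, but single arrays did, with control arrays between 8.33 and 9.25 and spastic arrays between 8.15 and 8.74. Array a lay below array b in all 6 samples that have both, as it also did for Sema5b and Sema6c, while it lay above in all 6 for Efnb2, and 5 of the 6 spastic arrays carry the letter a. Plxna2 in spastic samples was 1.44-fold lower than in controls (-0.52 on the log2 scale, SE 0.15, adjusted p = 0.0286). The call was lost on leaving out, in turn, the 9-month male (-0.53, adjusted p = 0.0663), 12-month female (-0.48, adjusted p = 0.0888) or 12-month male control (-0.49, adjusted p = 0.0807), the sample titled sev (-0.50, adjusted p = 0.0652) or the 3+ month sample (-0.52, adjusted p = 0.0610). The call was also lost with quantile normalization.

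Nrp1, neuropilin 1, which binds Sema3a and also the vascular growth factor VEGF-A, had 9.77, 9.44, 9.93 and 9.78 in controls and 9.59 in B6C3Fe. In spastic samples it had 9.46, 9.60, 8.97, 9.36 and 9.19, so the groups overlapped by the 9-month male control and the 2-month spastic samples. Nrp1 in spastic samples was 1.36-fold lower than in controls (-0.44 on the log2 scale, SE 0.14, adjusted p = 0.0453). Its second probe set gave a similar difference that did not pass (-0.41, adjusted p = 0.107, with every probe set tested). The call was lost in 7 of 10 fits without 1 sample each, with differences between -0.51 and -0.37 over all 10. It passed without either the second 2-month sample, the 3+ month sample or the B6C3Fe sample. Without titled sex in the model it did not pass (-0.42, adjusted p = 0.0725). Nor did Nrp1 pass with quantile normalization.

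The other 3 plexins did not pass. Plxna3, a class A plexin, differed by -0.23 (adjusted p = 0.258), Plxna1 by 0.07 (adjusted p = 0.826) and Plxnb2, a receptor of class 4 semaphorins, by -0.08 (adjusted p = 0.690). The 95% intervals were -0.53 to 0.07, -0.36 to 0.50 and -0.37 to 0.20. The second Plxnb2 probe set differed by -0.42 (adjusted p = 0.181 in limma's fit, with every probe set tested), outside that interval of Plxnb2.

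For the 3 genes with the largest called differences, Sema6b, Sema6d and Plxnd1, the sequence before the transcription start is shown so that the regions can be set side by side. RefSeq promoters were matched by symbol for 37 of the 44 guidance genes. The windows hold the 250 bases before the outermost listed start, 5' to 3' on the gene's strand, at chr17:56140344-56140593 (minus strand) for Sema6b, chr2:124089719-124089968 (plus strand) for Sema6d and chr6:115995006-115995255 (minus strand) for Plxnd1, in the build GRCm38.p6. Sema6b and Sema6d each have 2 starts listed, and Plxnd1 has 1. Capitals mark matches to the motifs searched.
Sema6b: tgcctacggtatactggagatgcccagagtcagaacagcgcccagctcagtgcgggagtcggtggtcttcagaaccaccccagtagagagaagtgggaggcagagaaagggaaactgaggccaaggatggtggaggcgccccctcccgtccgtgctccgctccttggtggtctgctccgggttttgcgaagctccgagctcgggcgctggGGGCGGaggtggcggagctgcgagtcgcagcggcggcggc
Sema6d: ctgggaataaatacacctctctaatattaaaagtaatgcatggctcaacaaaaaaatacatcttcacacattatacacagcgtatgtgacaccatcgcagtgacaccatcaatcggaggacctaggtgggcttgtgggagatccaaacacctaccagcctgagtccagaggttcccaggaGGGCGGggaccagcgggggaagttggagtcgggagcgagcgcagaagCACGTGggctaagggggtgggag
Plxnd1: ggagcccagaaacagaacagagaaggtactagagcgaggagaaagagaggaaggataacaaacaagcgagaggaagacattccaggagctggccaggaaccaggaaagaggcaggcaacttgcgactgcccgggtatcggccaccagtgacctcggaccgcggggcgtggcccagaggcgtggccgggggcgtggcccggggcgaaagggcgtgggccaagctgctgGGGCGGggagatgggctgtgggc
Each window holds 1 GC box (GGGCGG, either strand), with its first base at -40 in Sema6b, -70 in Sema6d and -23 in Plxnd1 relative to the start; 32.7% of all 32851 promoter windows hold one. The Sema6d window also holds an E-box (CACGTG) at -23, found in 6.02% of windows. The TATA box (TATAAA), held by 12.4% of all windows, was not found in these 3 windows. Nor was the CCAAT box, held by 33.8% of all windows. The core of ETS factor sites with its flank (CCGGAA), held by 12%, was not found either. The last motif searched, that of Sox factors (ACAAAG), is held by 16.5% of windows and was also not found. All motifs were searched on both strands, and no matches overlapped. The share of G and C was 66.0% for Sema6b, 52.4% for Sema6d and 64.8% for Plxnd1, beside a median of 52.4% over all windows. A match is a description of letters and the arrays do not bear on its use.

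Among the other semaphorins none of the 7 tested genes outside class 6 passed. The nearest were Sema4f, a membrane semaphorin of neurons and glia, at 0.23 (SE 0.09, adjusted p = 0.108) and Sema5b at 0.37 (adjusted p = 0.156). Sema4f ran from 10.51 to 10.74 in controls and from 10.76 to 10.96 in spastic samples, which did not overlap. Sema3b, a secreted class 3 semaphorin, differed by 0.59 (adjusted p = 0.176). Sema4a (0.26), Sema4b (-0.13), Sema4d (-0.06) and Sema7a (0.04) had adjusted p between 0.411 and 0.841. With every probe set tested in limma's fit, the second Sema7a probe set differed by 0.65 (adjusted p = 0.239). In that fit another Sema4b probe set differed by 0.23 (adjusted p = 0.418).

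The secreted class 3 semaphorins lay mostly near the floor, and only Sema3b passed the filter. By sample means, 5 of the 6 class 3 probe sets were lower in spastic cords, and for 4 of them all spastic samples lay below all controls, for Sema3c only by a control at 5.94 and spastic samples at the floor of 5.93. Of all 4969 probe sets below the filter, 5.53% had every spastic sample below every control. The Sema3b probe set among the 4 is the weaker, untested probe set. These shares are not alike: the 6 include the tested Sema3b probe set, which is above the filter. Probe sets at the floor on all arrays, which cannot separate, count in the 4969. Sema3a, the classical repellent of sensory and motor axons, had 7.13, 6.54, 7.36 and 6.67 in controls, and was at the floor on 5 of the 6 spastic arrays, with a highest spastic sample of 6.18. Sema3e, the ligand of Plxnd1, had 7.28, 7.25, 6.92 and 8.33 in controls and 6.59, 5.93, 5.93, 6.36 and 6.10 in spastic samples, with 3 of the 6 spastic arrays at the floor. B6C3Fe had 6.12 for Sema3a, near the spastic values, and 7.21 for Sema3e, within the control range. With no filter on low values, where 11% of 9840 genes were called between spastic and control cords, both were called, Sema3a at -0.98 (SE 0.13, adjusted p = 0.0100) and Sema3e at -1.23 (SE 0.29, adjusted p = 0.0413). Differences of genes at the floor are understated, and so is their spread. The SD was 0.39 (n = 4) in controls and 0.11 (n = 5) in spastic samples for Sema3a, and 0.61 and 0.29 for Sema3e. The p-values of these calls can therefore be too small. Sema3b gave opposite readings: the tested probe set had controls at 8.25 ± 0.58 (SD, n = 4) and spastic samples at 8.82 ± 0.42 (SD, n = 5), and a weaker probe set at 7.46 ± 0.25 (SD, n = 4) and 6.65 ± 0.36 (SD, n = 5), with no overlap. Its direction is therefore uncertain.

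**Figure D3:**
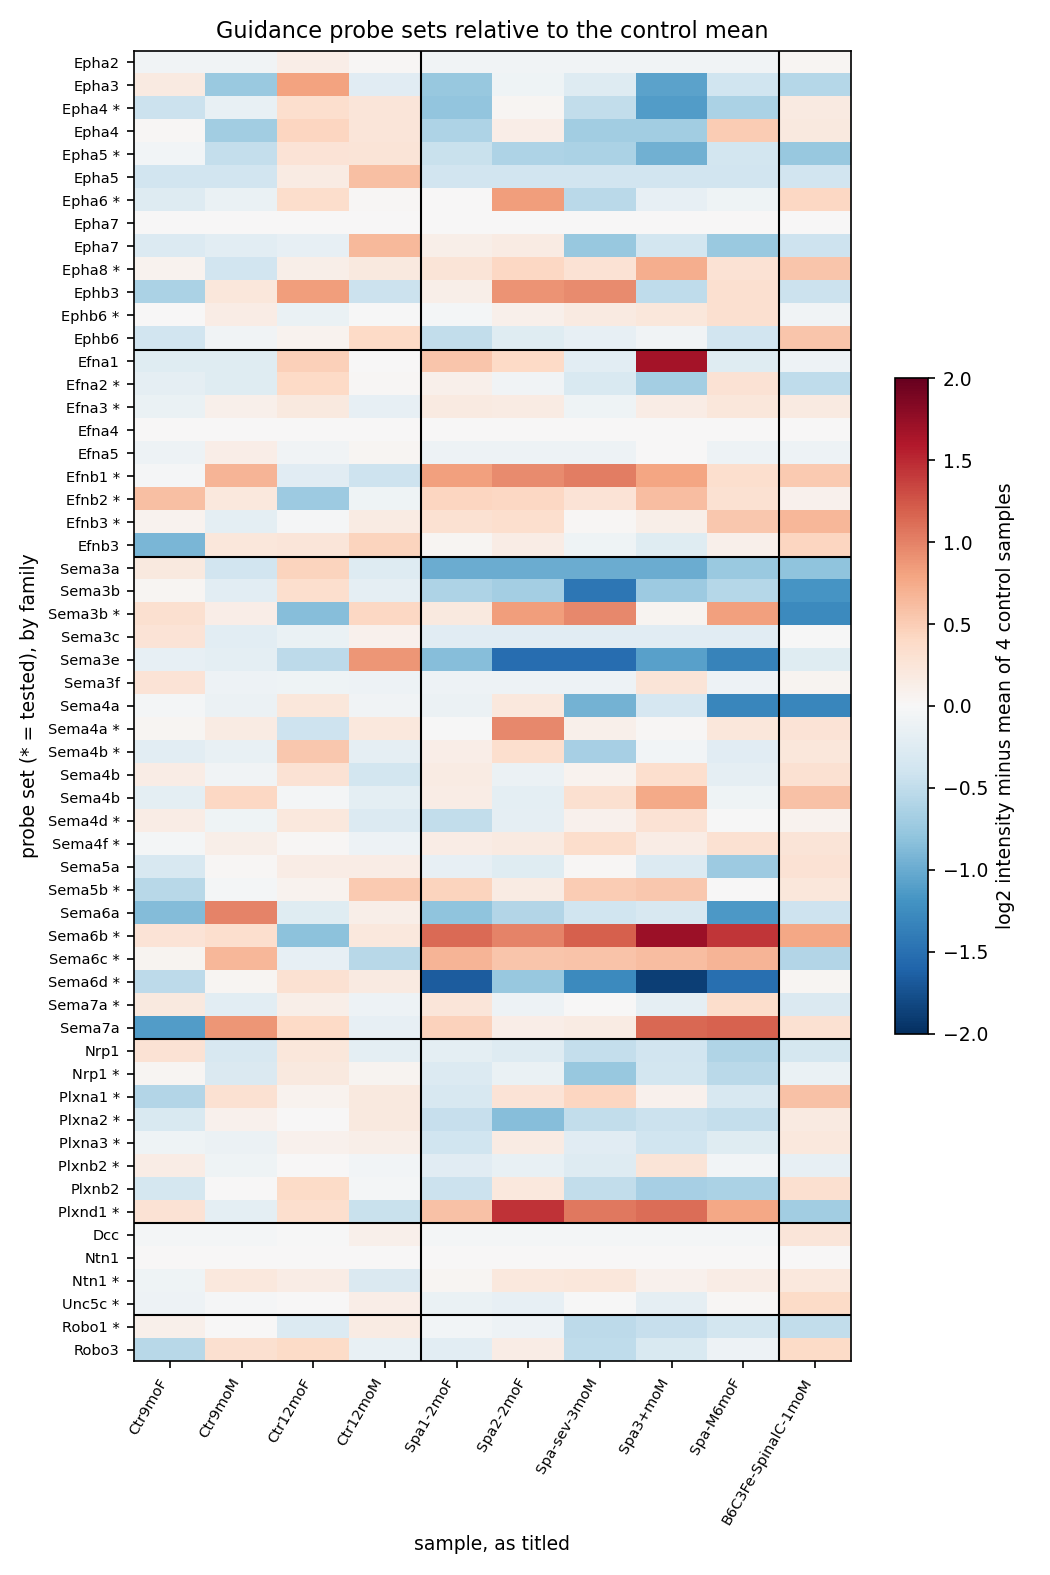
Log2 intensity minus the mean of the 4 control samples (colour, from -2 to 2) for the 57 guidance probe sets (rows, grouped by family and named by gene, with an asterisk where tested) in the 10 samples (columns). The rows of Sema6b, Efnb1 and Plxnd1 are red and those of Sema6d, Sema3a and Sema3e blue across the 5 spastic columns, and most other rows are pale or mixed.

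Of the 5 ephrins tested, 1 was higher and 0 were lower in spastic cords, beside 19.8% of all genes called. Their median difference was 0.24. Efnb1, a transmembrane ligand of EphB receptors, had 7.44, 8.14, 7.24 and 7.05 in controls, 8.29, 8.41, 8.49, 8.26 and 7.80 in spastic samples and 7.99 in B6C3Fe. The groups overlapped by the 9-month male control at 8.14 and the 6-month spastic sample at 7.80. Efnb1 in spastic samples was 1.75-fold higher than in controls (0.81 on the log2 scale, SE 0.24, adjusted p = 0.0386). Its arrays were uneven: arrays a and b differed by -1.03 in the 9-month female control and by 1.45 in B6C3Fe. The call was lost in 7 of 10 fits without 1 sample each, with adjusted p up to 0.104 (without the 12-month male control, 0.62). It passed without either the 9-month male control, the 6-month spastic sample or the B6C3Fe sample.

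The other transmembrane ephrins did not pass. Efnb2, known from arterial endothelium and from neurons, differed by 0.42 (95% interval -0.11 to 0.95, adjusted p = 0.248). Efnb3, an ephrin of the cord midline that keeps corticospinal axons from crossing, differed by 0.24 (adjusted p = 0.146), and its second probe set by 0.01 (adjusted p = 0.984, with every probe set tested). Of the lipid-anchored ephrins, Efna3 differed by 0.11 (adjusted p = 0.486) and Efna2 by -0.18 (adjusted p = 0.527). Efna1 was below the filter and stood apart in a single spastic sample, with 7.84 at 3+ months and 5.93 to 6.73 in the other 4. Efna4 was at the floor on all 16 arrays, and Efna5 lay at 6.17 or lower in every sample.

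Of the 5 Eph receptors tested, 0 were higher and 1 was lower, again beside 19.8% of all genes called. Their median difference was -0.03. Epha5, a receptor of the lipid-anchored ephrins in neurons, had 8.39, 7.97, 8.72 and 8.71 in controls and 8.00, 7.83, 7.82, 7.49 and 8.08 in spastic samples. The 9-month male control lay among the spastic samples, and B6C3Fe, at 7.69, lay below all controls. Epha5 in spastic samples was 1.55-fold lower than in controls (-0.63 on the log2 scale, SE 0.20, adjusted p = 0.0452). A second probe set, below the filter, was at the floor on all 6 spastic arrays, on both B6C3Fe arrays and on 5 of the 8 control arrays. The call was lost in 8 of 10 fits without 1 sample each, with adjusted p up to 0.135 (without the 12-month male control, -0.49), and it passed without either the 9-month male control or the B6C3Fe sample. When B6C3Fe joined the controls and log2 age entered the model, the difference was -0.29 (adjusted p = 0.390), and without titled sex in the model it was -0.60 (adjusted p = 0.0581). With quantile normalization Epha5 was not called.

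Epha4, the receptor through which ephrin-B3 acts on corticospinal and spinal interneuron axons, had a difference of nearly the same size as Epha5 with more spread (-0.61, SE 0.26, adjusted p = 0.123). Its controls ran from 7.79 to 8.57 and its spastic samples from 7.12 to 8.27, and it lay at 8.41 in B6C3Fe. Epha8 differed by 0.39 (adjusted p = 0.144), with spastic samples at 8.50 to 8.97 above all controls at 7.86 to 8.44, while B6C3Fe, at 8.79, lay below the highest spastic sample and above the other 4. Ephb6, which lacks kinase activity, differed by 0.17 (adjusted p = 0.277) and Epha6 by -0.03 (adjusted p = 0.948). The second Ephb6 probe set differed by -0.24 (adjusted p = 0.257 in limma's fit, with every probe set tested). Epha2, Epha3, Epha7 and Ephb3 were below the filter.

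Netrin, its receptors and Robo1 gave no calls. Ntn1, the secreted netrin 1, lay at 9.35 ± 0.23 (SD, n = 4) in the control group, at 9.49 ± 0.08 (SD, n = 5) in the spastic group and at 9.56 in B6C3Fe (difference 0.14, 95% interval -0.15 to 0.43, adjusted p = 0.486). A second Ntn1 probe set was at the floor on all arrays. Unc5c, a repulsive netrin receptor, lay at 9.45 ± 0.10 (SD, n = 4) and 9.36 ± 0.09 (SD, n = 5) (difference -0.09, 95% interval -0.33 to 0.16, adjusted p = 0.620). Dcc, the attractive netrin receptor, was at the floor on all 6 spastic and 6 of 8 control arrays. Robo1, a receptor of Slit proteins, lay at 8.65 ± 0.19 (SD, n = 4) and 8.35 ± 0.21 (SD, n = 5) (difference -0.31, 95% interval -0.69 to 0.06, adjusted p = 0.217). Robo3 was below the filter. Unc50 differed by -0.21 (adjusted p = 0.202).

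Of the 22 guidance genes that were tested and not called, 13 were higher and 9 lower in the fit, and for 19 of them the 95% interval lay within 1 log2 unit of 0 on both sides. Of the 15 genes below the filter, 12 had a lower and 2 a higher mean in spastic cords, and 1 was at the floor throughout. The same count over all genes below the filter was not made, so this lean cannot be read as particular to guidance genes. Several probe sets were present for 12 genes: by sample means, in 5 the probe sets differed between the groups in the same direction, in 5 in opposite directions, and in 2 one of them was at the floor on all arrays. The opposite ones were those of Ephb6, Sema3b, Sema4a, Sema4b and, by a mean difference of only -0.01 in the second probe set, Efnb3.

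The Pcx ratio was higher in spastic than in control samples and so moved with the called genes. Its difference of 0.65 had an adjusted p of 0.127 in the exact permutation test. The ratios of the other control genes went the other way, Tfrc by -0.67, Actb by -0.32 and Gapdh by -0.06. With the Pcx ratio as a covariate, 0 of the 29 guidance genes and 9 of all genes (0.14%) were called between spastic and control cords. The difference of Sema6b was then 0.90 (adjusted p = 0.170) and that of Sema6d -0.75 (adjusted p = 0.192), while Plxnd1 had 0.92, Efnb1 1.16, Plxna2 -0.54, Epha5 -0.57 and Nrp1 -0.48. On array a of the 9-month female control, whose Pcx ratio was in the spastic range, Sema6d had 8.38, Sema6b 9.04, Plxnd1 8.03 and Plxna2 8.33, against 10.06, 8.33, 7.39 and 9.08 on array b, each nearer the spastic values on array a. The other 3 called genes were nearer the spastic values on array b: Efnb1 had 6.93 on array a and 7.95 on array b, Epha5 8.68 and 8.11, and Nrp1 9.91 and 9.63. The part of RNA quality in these differences was not tested beyond these values.

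**Figure D4:**
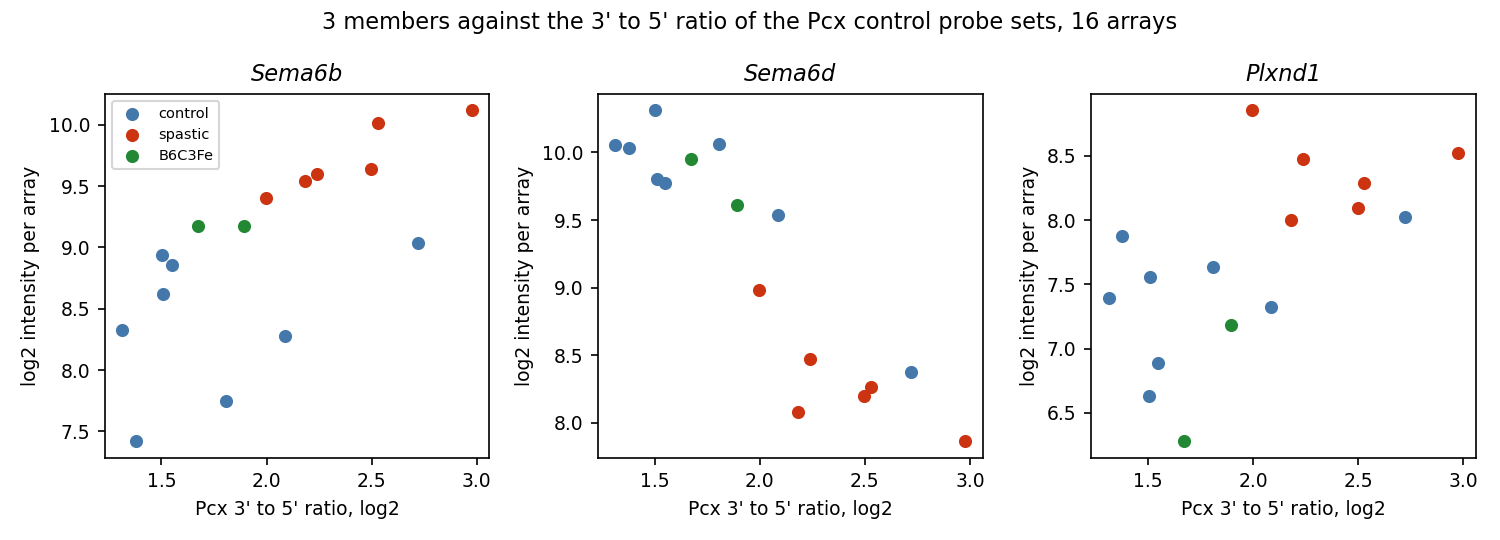
Log2 intensity of Sema6b, Sema6d and Plxnd1 (y axes) against the log2 ratio of the 3' to the 5' Pcx control probe set (x axis) on each of the 16 arrays, coloured by group. The control array at a ratio of 2.72 is array a of the 9-month female sample, and it lies among or next to the spastic arrays for Sema6d and Plxnd1 and below them for Sema6b.

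Against B6C3Fe, 0 of the 29 guidance genes were called in spastic cords, beside 2.05% of all genes; 7 of the 29 and 1304 of all genes had an unadjusted p under 0.05 in limma's fit. The nearest were Sema3b (1.95, adjusted p = 0.0782), Plxnd1 (1.56, adjusted p = 0.0865), Sema6d (-1.48, adjusted p = 0.0974) and Sema6c (1.22, adjusted p = 0.110). B6C3Fe is 1 sample, assumed to vary like the others, and this comparison shares the spastic samples with that against controls. With no filter on low values 2.58% of all genes were called and Dcc was the only guidance gene among them. That call rests on 1 array: Dcc was at the floor on all spastic arrays and on array a of B6C3Fe, and lay at 6.51 on array b.

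B6C3Fe cords against controls gave 0 calls among the 29 genes, beside 0.389% of all genes; 2 of the 29 and 965 of all genes had an unadjusted p under 0.05 in limma's fit. These were Efnb3, higher in B6C3Fe by 0.75 (SE 0.19, adjusted p = 0.104), and Sema3b, at -1.36 (SE 0.50, adjusted p = 0.242). Efnb3 lay at 12.82 in B6C3Fe, above all 4 controls (11.96 to 12.32) and all 5 spastic samples (12.19 to 12.69). On the second Efnb3 probe set B6C3Fe, at 11.42, lay within the control range (10.08 to 11.44) and above the spastic samples (10.76 to 11.14). Between controls of 12 and 9 months 0 of the 29 genes and 0% of all genes were called; 4 of the 29 and 322 of all genes had an unadjusted p under 0.05 in limma's fit. The 4 were Efnb2 (-0.81), Sema6c (-0.72), Sema6b (-0.62) and Sema5b (0.59), each with an adjusted p of 0.939. The sample titled sev against the other spastic samples gave 0 calls among the 29 genes and 0% among all genes, with 0 of the 29 and 257 of all genes at an unadjusted p under 0.05 in limma's fit. The smallest adjusted p of a guidance gene there was 0.996.

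Other genes of guidance were followed in a list of co-receptors and further cues and a list of signalling inside the growth cone. Of 17 co-receptors and cues tested, 1 was higher and 4 were lower in spastic cords, with a median difference of -0.07; of all genes tested, 19.8% were called. Ptprs, a receptor phosphatase that binds proteoglycans, was higher by 0.73 (adjusted p = 0.00518). The related phosphatase Ptprd fell by 1.47 (adjusted p = 0.000440), the adhesion molecule Nrcam, which can bind neuropilins, by 1.09 (adjusted p = 0.00399), contactin 1 (Cntn1) by 0.62 (adjusted p = 0.00595), and Rtn4, which encodes the growth inhibitor Nogo, by 0.39 (adjusted p = 0.0227). Of 36 signalling genes tested, 6 were higher and 7 lower, with a median of 0.08, again beside 19.8% of all genes called. The 6 higher were Tiam1 (0.52), Ablim1 (0.51), cofilin 1 (Cfl1, 0.49), Cdk5 (0.46), Abl1 (0.43) and Dpysl4 (0.42). The lower genes included Ppp3cb (-1.21) and Ppp3ca (-0.41), both subunits of calcineurin, the kinases Pak3 (-1.08) and Rock1 (-1.07), the actin regulators Enah (-0.90) and cofilin 2 (Cfl2, -0.44), and Rasa1 (-0.81). Against the 1 B6C3Fe sample these differences were not all kept. Ptprs in spastic cords differed from it by 0.48, Ptprd by -1.29, Nrcam by -0.89, Cntn1 by -0.74 and Rtn4 by 0.04. The 6 higher signalling genes differed from it by 0.34, 0.49, 0.04, 0.30, 0.24 and -0.08, in the order above. The lower signalling genes, in the order above, differed from it by -1.06, 0.003, -0.40, -1.16, 0.29, -0.69 and -0.23.

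Markers of other cell types of the cord were counted in the same fit, in which 19.8% of all genes tested were called. A list with a share near that background is not a result about its cell type. In spastic cords 2 of 12 neuronal genes were higher and 3 lower, 2 of 3 motor neuron genes were higher and 0 lower, and 1 of 9 astrocyte genes was higher and 2 lower. Of 7 oligodendrocyte genes 1 was higher and 1 lower, and of 5 genes of immature oligodendrocytes 2 were higher and 0 lower. Of 8 microglial genes 0 were higher and 2 lower, of 2 Schwann cell genes 1 was higher, of 8 meningeal genes 1 was lower, of 8 skeletal muscle genes 2 were lower, and of 3 blood genes 0 were called. Their part in the guidance genes was not tested.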

How the data were processed

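The authors' deposited values are linear intensity per probe set and array; the sources used here do not name the software that made them. They were not normalized again. A floor was set at the 20th percentile of all intensities (60.9, log2 5.93), and log2 was taken. Probe sets were named from the platform annotation, and a gene was tested through its probe set of highest mean where that mean passed the 40th percentile. Probe sets with no gene symbol (1193 on the array) or several (396) were each counted as a gene of their own. The counts of all genes, 6427 with the filter and 9840 without, take in such probe sets. Arrays a and b of a title were averaged. Differences between groups were fitted with limma 3.58.1 in R 4.3.3 (lmFit, eBayes with a trend) on all 10 samples, with group and titled sex, and adjusted by Benjamini-Hochberg over all 6427 genes; calls were made at an adjusted p under 0.05, 2-sided. The fits were also run on simulated data with known changes. Those data hold no difference of age, RNA quality or array brightness between groups, so they do not bear on these. Log2 differences are those of the group named first minus the second.

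Every gene matching the family pattern was accounted for; called genes were given sample by sample, and called genes of the 2 guidance lists were named up to 6 in each direction, beside Ppp3ca, a seventh, which was chosen after its value was seen. Marker lists covered endothelial, mural, neuronal, motor neuron, astrocyte, oligodendrocyte, immature oligodendrocyte, microglial, Schwann, meningeal, skeletal muscle and blood genes. The members and lists were chosen with earlier results of these data known. Alternatives changed the floor, filter, normalization, averaging of arrays, probe set rule, eBayes trend, sex term, Pcx covariate and reference group, and left out each sample in turn, the 2 spastic samples titled male, or array a of the 9-month female control. The number of arrays limits the precision.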

Additional observations from a re-analysis of the deposited data

Results flagged for a closer look

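A single sample stood apart from the rest of its group for 5 of the 58 gene and group pairs examined, where chance gives about 1 in 20. The ratio is the gap to the nearest sample over the range of the group. In controls, the 12-month female sample was low for Sema6b (7.58, next 8.61, ratio 0.888) and high for Sema4b (9.64, next 8.95, ratio 0.916). In spastic cords, the second 2-month sample was high for Sema4a (11.10, next 10.37, ratio 0.756) and low for Plxna2 (8.15, next 8.51, ratio 0.848), and the sample titled sev was low for Efna3 (11.18, next 11.41, ratio 0.745).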

How the results depend on the processing

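Of the 7 guidance genes called between spastic and control cords, 0 reversed under any alternative. Sema6b lost its call in 1 of 27 alternatives, Sema6d in 3 of 27, Plxnd1 in 4 of 26, Plxna2 in 10 of 26, Nrp1 in 16 of 27, Epha5 in 17 of 26 and Efnb1 in 18 of 26. The count of 7 became 4 with the filter at the 60th percentile, where 17 guidance genes were tested, 1 with only the 1a arrays, 0 with the Pcx ratio as a covariate and 1 without the 2 spastic samples titled male. With quantile normalization the count was 6: Plxna2, Epha5 and Nrp1 lost their calls, while Epha8 and Sema6c gained one. With the letter a or b as a replicate block over arrays it was 11. The labels do not say that the letters pair samples; over the 6427 genes tested, the differences a minus b of the 6 samples with both arrays correlated at -0.04 to 0.16, above 0.1 in 1 of 15 pairs of samples. Leaving out 1 sample gave 2 to 7 calls, with 2 without the 12-month male control (Sema6b and Sema6d), 3 without the 12-month female control or the sample titled sev, and 4 without the first 2-month or the 3+ month sample. For spastic minus B6C3Fe the count of 0 became 3 with unaveraged arrays as replicates and 3 with the letter as a replicate block, and 1 with no filter, quantile normalization, the sample as a random block, no sex term or without array a of the 9-month female control; leaving out 1 sample gave 0 to 1. For B6C3Fe minus control it became 1 with unaveraged arrays as replicates or the sample as a random block and 2 with the letter as a replicate block. The age and sev comparisons kept 0 calls in every alternative that could be fitted; sev could not be compared without its own sample. The cause of these changes was not tested. The main limits are 10 samples, 1 of them B6C3Fe, groups that share no age, titled sex that 2 spastic arrays contradict, and levels near the floor for the class 3 semaphorins.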
